A study of Homo sapiens with 5 samples.

Results

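SOSTDC1-positive cells of the HA control were described: cells of the MDA-MB-468 line that held at least 2 unique molecular identifiers (UMIs, each standing for 1 captured transcript) of SOSTDC1. They were chosen on raw SOSTDC1 UMIs among cells assigned to the HA control hashtag that had at least 1500 detected genes and at most 20% mitochondrial (MT-) UMIs. This gave 603 of 3380 kept HA control cells, in a pool of 5 samples with 14642 kept cells and 21228 called cells. They were set against the 2037 HA control cells with 0 SOSTDC1 UMIs, and the 740 cells with 1 UMI belonged to neither group.

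MDA-MB-468 is an established human line of triple-negative, basal-like breast cancer. The study asked which genes change when FOSL1 is raised, by 2 routes named HA and VPR in the labels, which do not spell out either name. FOSL1 codes for FRA-1, 1 of the proteins that pair up to form AP-1, a transcription factor. The groups were HA control, HA FOSL1, VPR FOSL1 gRNA2, VPR FOSL1 gRNA3 and VPR control, with 1 sample each, stained with 1 hashtag antibody per sample and counted together in 1 droplet library by the 3′ end of each transcript. The labels give no culture replicate, clone or promoter for any sample, and they mention 5-fluorouracil for the wider work without saying whether these samples received it. Totals ran from 42058533 to 85556699 gene UMIs per sample.

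SOSTDC1, also called ectodin or USAG-1, is a secreted protein that binds bone morphogenetic proteins (BMPs) and the Wnt co-receptor LRP6, and can hold back both pathways. It is known for its part in patterning teeth, hair and mammary buds in the mouse, and its level is reported to be low in many breast cancers. BMPs signal through SMAD proteins to targets such as the ID genes, and Wnt ligands act through Frizzled and LRP receptors on beta-catenin. In the annotation used here (GRCh38.p14), SOSTDC1 (ENSG00000171243) lies on chr7:16461481-16465738.

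The HA control held the most SOSTDC1 per UMI of the 5 samples. Its level was 43.1 CPM (UMIs of a gene scaled to a fixed total; 95% counting interval 41.4 to 44.9), against 4.54 CPM in HA FOSL1, 13.7 CPM in VPR FOSL1 gRNA2, 10.2 CPM in VPR FOSL1 gRNA3 and 20.3 CPM in the VPR control. The share of cells with at least 2 UMIs was 17.8% (exact binomial interval 16.6% to 19.2%) in the HA control, 1.37% in HA FOSL1, 4.45% with gRNA2, 3.58% with gRNA3 and 7.17% in the VPR control. No interval of another sample reached that of the HA control. With every cell thinned to 5000 UMIs, which left out 13 HA control cells, the share was 3.95% in the HA control, 0.165% in HA FOSL1, 0.591% with gRNA2, 0.583% with gRNA3 and 1.24% in the VPR control. Free RNA was measured in droplets without a cell and held 13.7 CPM of SOSTDC1 (29 UMIs, interval 9.19 to 19.7). That interval lay below that of the HA control and above that of HA FOSL1, and it overlapped those of both gRNA samples and of the VPR control. These levels chose the cells and are a description with no test, as 1 sample stands for each group.

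**Figure D1:**
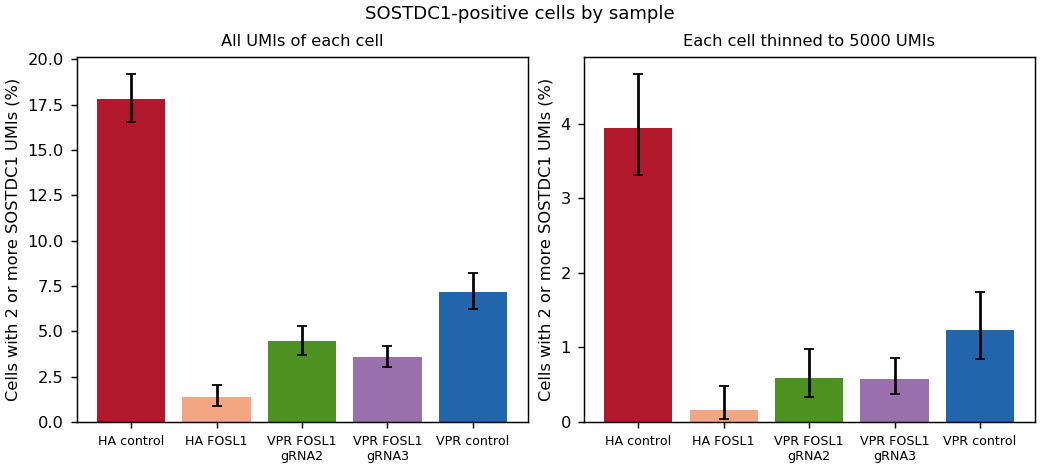
Share of kept cells with at least 2 SOSTDC1 UMIs (y axis, percent) in the 5 samples (x axis), for all UMIs of each cell on the left and for cells thinned to 5000 UMIs on the right. Bars are the shares and whiskers exact binomial 95% intervals, which cover counting error only; the HA control stood highest in both, at 17.8% and 3.95%.

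Within the HA control, SOSTDC1 was unevenly spread. At 2 UMIs stood 329 cells, at 3 to 4 UMIs 208 cells and at 5 or more UMIs 66 cells, with up to 9 UMIs in 1 cell. The 603 positive cells carried all but 30.1% of the sample's SOSTDC1 UMIs, and that remainder came from the cells with 1 UMI. In thinned cells the variance of SOSTDC1 was 1.31 times its mean, against a median of 1.03 times in 1130 genes of like level, of which 17 lay higher than SOSTDC1. Cells with more SOSTDC1 UMIs also held more UMIs in all, with a median of 15133 at 0 UMIs, 15601 at 1, 15826 at 2, 16225.5 at 3 to 4 and 18364 at 5 or more. Each positive cell was therefore matched to 1 cell with 0 SOSTDC1 UMIs within 5% of its total, which succeeded for 602 of 603 cells. The matched positive and zero cells had medians of 16076.5 and 16083.5 UMIs, 4165 and 4169 genes, and 11.4% and 11.3% mitochondrial UMIs. All ratios below are log2 ratios of CPM + 1 of the summed UMIs with SOSTDC1 itself left out, and their intervals cover counting error only.

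Positive cells were epithelial like the rest of the line. The 7 epithelial markers EPCAM, KRT7, KRT8, KRT18, KRT19, CDH1 and EGFR were all detected and summed to 7352 CPM in positive cells and 8261 CPM in zero cells. Fibroblast markers summed to 5.25 and 4.43 CPM, nearly all of it COL1A1, with DCN, LUM and PDGFRB at 0. Immune markers summed to 15.2 and 13.7 CPM, nearly all of it CD14, with CD3E and HLA-DRA at 0. The endothelial markers summed to 0.277 and 0.646 CPM, and the neural marker SOX10 was at 0 in both.

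FOSL1 itself stood lower in positive cells in all 5 samples. In the HA control it had 66 UMIs in positive cells and 156 in zero cells, or 6.08 CPM (4.70 to 7.74) and 14.4 CPM (12.2 to 16.8). The values of positive and zero cells were 23.2 and 71.3 CPM in HA FOSL1, 50.1 and 104 CPM with gRNA2, 33.7 and 116 CPM with gRNA3, and 6.11 and 9.61 CPM in the VPR control, where the interval of the log2 ratio, -1.32 to 0.16, held 0. In the HA control the gap narrowed when all zero cells were used without matching, at a log2 ratio of -0.71, against -1.12 after matching.

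A gene was counted as higher or lower where its mean level over both cell groups reached 20 CPM and its log2 ratio reached 0.32 either way. Of 5694 genes at that level, 84 (1.48%) were higher in positive cells and 208 (3.65%) lower, together 292 (5.13%). On either side of 0 without regard to size, 3219 of the 5694 lay below and 2475 above. With no replicate of the HA control these are counts past a size and not tested calls. The 14 genes farthest above 0 included TFCP2L1, FGFBP1, RGCC, AKR1C2, SLC12A2, KRT14, AKR1C1, LDHB, KRT15, MMP7, SAT1, ALCAM and AGR2, at log2 ratios of 0.94 down to 0.72. The 14 farthest below were TAGLN, DKK1, CST6, INHBA, GADD45A, AKR1B1, PRSS23, KRT81, CRISP3, F3, SELENOP, CASP14, CSRP1 and MGLL, at -2.00 up to -0.80.

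**Figure D2:**
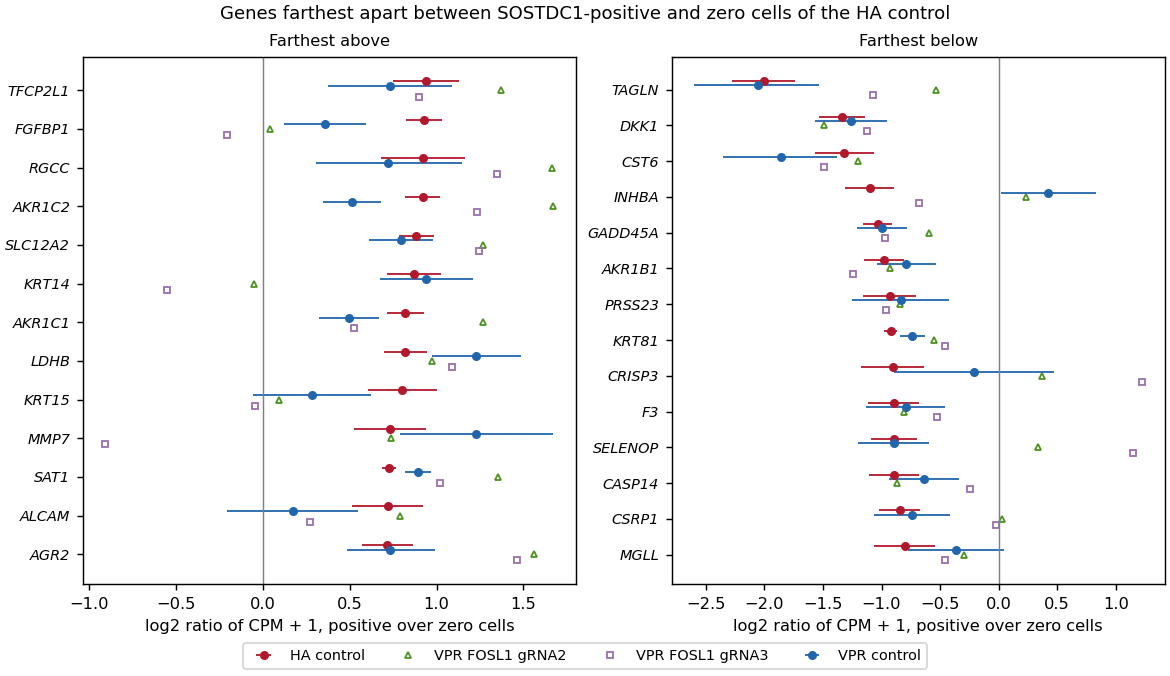
Log2 ratio of CPM + 1, positive over zero cells (x axis), for 13 of the 14 highest and for the 14 lowest ratios in the HA control (rows). Filled points with whiskers are the HA control and the VPR control with 95% counting intervals, open symbols the FOSL1 gRNA samples; HA FOSL1, with 25 positive cells, is not drawn. TAGLN stood at -2.00 in the HA control and -2.06 in the VPR control, whereas INHBA stood at -1.10 and 0.42.

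Among the genes higher in positive cells, SAT1 was the most abundant. It encodes the spermidine/spermine acetyltransferase that starts polyamine breakdown, and it had 1172 CPM in positive cells and 708 CPM in zero cells (12709 and 7669 UMIs; log2 ratio 0.73, interval 0.68 to 0.77). TFCP2L1, a transcription factor of pluripotent and epithelial cells, had 59.1 and 30.4 CPM. SLC12A2, the sodium-potassium-chloride cotransporter of secretory epithelia, had 218 and 118 CPM. LDHB, a subunit of lactate dehydrogenase, had 138 and 77.8 CPM. AGR2, a protein disulfide isomerase of mucus-secreting cells, had 90.5 and 54.7 CPM. All of these intervals lay above 0, but the genes had been named only if their interval left out 0. That was thus fixed by the choice and adds no support.

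Several other genes of this group act outside the cell or shape it. FGFBP1, which releases fibroblast growth factors from the matrix, had 193 CPM in positive cells and 101 CPM in zero cells. MMP7, a matrix protease of glandular epithelium, had 44.9 and 26.7 CPM, and the adhesion protein gene ALCAM had 46.1 and 27.6 CPM. RGCC, a cell cycle regulator, had 35.3 and 18.2 CPM. AKR1C2 had 208 and 110 CPM and AKR1C1 186 and 105 CPM; these steroid and carbonyl reductases are near copies, and 3′ reads could be split between them.

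Among the genes lower in positive cells, TAGLN was farthest from 0. It encodes transgelin, an actin-binding protein of contractile cells, and it had 11.5 CPM in positive cells and 49.2 CPM in zero cells (125 and 533 UMIs; log2 ratio -2.00, interval -2.27 to -1.74). DKK1, a secreted Wnt antagonist, had 26.5 and 68.3 CPM, and CST6, a secreted cysteine protease inhibitor, had 15.2 and 39.4 CPM. INHBA, the subunit of activin A, had 23.7 and 52.0 CPM. GADD45A, a gene of the DNA damage and stress response, had 74.2 and 153 CPM. Over all 2037 zero cells, without matching, TAGLN was at 36.4 CPM, INHBA at 43.3 CPM and GADD45A at 152 CPM. The size of the TAGLN and INHBA gaps thus depended on which zero cells were used.

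The others of that group were of mixed function. KRT81, a hair keratin, had 360 CPM in positive cells and 682 CPM in zero cells, AKR1B1, the aldose reductase, 37.3 and 74.7 CPM, and F3, the tissue factor that starts coagulation, 23.0 and 43.6 CPM. PRSS23, a serine protease, had 20.9 and 40.7 CPM, and MGLL, the monoacylglycerol lipase, had 16.4 and 29.4 CPM. CRISP3, a secreted glycoprotein, had 14.7 and 28.4 CPM, SELENOP, the selenium transport protein, 27.8 and 52.5 CPM, and CASP14, a protease of cornifying skin, 24.5 and 46.3 CPM.

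Cells with 1 SOSTDC1 UMI, which neither group used, were then set against the 0-UMI cells. In all 14 genes of either side they lay on the same side as the positive cells did, but the genes had been chosen with some of the same 0-UMI cells. Set only against the 1435 zero cells not matched to a positive cell, an alternative chosen after seeing the data, they did so in 79 of the 84 higher genes (94.0%) and 164 of the 208 lower genes (78.8%), against 59.7% of all 5694 genes. TAGLN was at 36.4 CPM in cells with 0 SOSTDC1 UMIs, 17.6 CPM at 1, 15.6 CPM at 2, 7.56 CPM at 3 to 4 and 4.62 CPM at 5 or more. GADD45A followed the same order, at 152, 102, 88.7, 62.3 and 50.9 CPM. SAT1 ran the other way, at 730, 965, 1118, 1195 and 1308 CPM, and TFCP2L1 likewise at 31.9, 48.5, 52.5, 62.8 and 76.3 CPM. INHBA did not keep the order, with 29.3 CPM at 5 or more UMIs against 18.8 CPM at 3 to 4. The levels were in order over 0, 1 and 2 UMIs in 13 of the 14 genes above and in 12 of the 14 below. The genes had been chosen with the 2-UMI cells and some of the same 0-UMI cells, so this order was in part fixed by the choice. The share of all genes in such an order was not computed, and the counts are a description. These cells were not matched on depth, and the part of depth in the series was not tested.

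**Figure D3:**
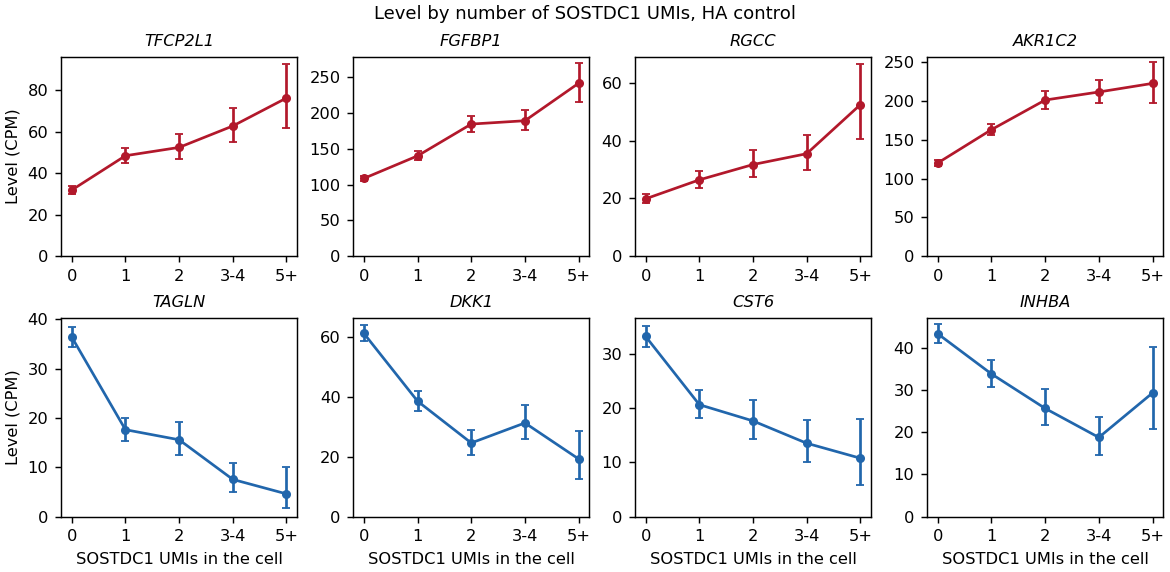
Level in CPM (y axis) in HA control cells with 0, 1, 2, 3 to 4 and 5 or more SOSTDC1 UMIs (x axis), for the 4 highest (upper row) and the 4 lowest ratios (lower row). Points are levels of summed UMIs and whiskers 95% Poisson intervals; TAGLN ran between 36.4 and 4.62 CPM over the series, and TFCP2L1 between 31.9 and 76.3 CPM.

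The same split was then made in the VPR control, whose cells the selection had not used, with 185 matched positive cells. There 4.42% of genes passed the same size upward and 6.7% downward in positive cells. Of the 84 higher HA control genes, 78 reached 20 CPM in the VPR control, and 69 of these lay above 0 and 45 passed the size upward. Of the 208 lower genes 201 did so, and 183 lay below 0 and 98 passed it downward. Over all 5550 genes measured in both, 45.7% lay above 0 in the VPR control, and the log2 ratios of the controls had a Pearson correlation of 0.50 across genes, which are not independent and share 1 library and its free RNA. TAGLN had 9.31 CPM in positive and 41.9 CPM in zero cells of the VPR control. INHBA, with 33.5 and 24.8 CPM, went the other way there. With gRNA2, 49 of 72 higher genes passed upward, where 9.42% of all genes did, and 88 of 202 lower genes downward, against 8.06% of all. With gRNA3 these were 45 of 69, against 6.64%, and 101 of 197, against 8.98%. In HA FOSL1, whose 25 positive cells put 23% of all genes past the size upward and 20.6% downward, they were 40 of 58 and 77 of 199.

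**Figure D4:**
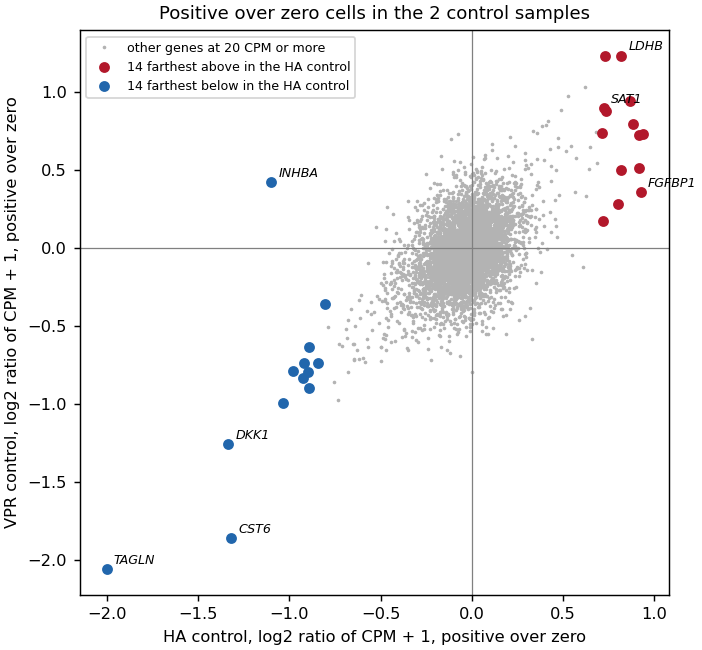
Log2 ratio of CPM + 1, positive over zero cells, in the HA control (x axis) and in the VPR control (y axis) for 5550 genes that averaged 20 CPM or more in both. Coloured points are the genes farthest from 0 in the HA control; CRISP3, below 20 CPM in the VPR control, is missing, and INHBA is the only coloured point on the other side of 0 in the VPR control.

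Across samples the difference was tested with edgeR's quasi-likelihood test on summed counts of positive and zero cells, with the sample as a block. VPR FOSL1 gRNA2 (113 positive cells), VPR FOSL1 gRNA3 (154) and the VPR control entered the fit. HA FOSL1, with 25 positive cells, fell short of the minimum of 30, and the HA control was left out because it had given the genes. Of 11225 genes fitted, 529 (4.71%) passed an adjusted p of 0.05, with 228 rising (2.03%) and 301 falling (2.68%) in positive cells. Of the 84 higher HA control genes 48 rose (57.1%), and of the 208 lower ones 86 fell (41.3%). Set against the genes called here that reached 20 CPM in the HA control, those were 27.9% of 172 risers and 43.7% of 197 fallers. A single gene went against the HA control, S100A8, a calcium-binding protein of inflamed epithelium, which rose by 0.65 log2 here and stood at -0.40 in the HA control. The fit had 2 residual degrees of freedom and drew most of its spread from all genes together, and DESeq2 called 90 genes. Without gRNA2, 350 genes were called, and without gRNA3, 235.

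The largest rises in the fit were IGFBP5, SPRY1, RGCC, AGR2 and LDHB. SLC12A2 rose by 1.09 log2 (SE 0.0766, adjusted p = 4.42e-22, edgeR), SAT1 by 1.08 (SE 0.0516, adjusted p = 6.80e-34) and TFCP2L1 by 0.99 (SE 0.118, adjusted p = 9.16e-11), each above 0 in 3 of 3 samples. SPRY1, a feedback inhibitor of receptor tyrosine kinase signalling, rose by 1.27 (SE 0.147) and had 51.3 CPM in positive and 36.2 CPM in zero cells of the HA control. IGFBP5, an insulin-like growth factor binding protein, rose by 1.34 in the fit but had 1437 CPM in positive and 1551 CPM in zero cells of the HA control. Its log2 ratio was 1.86 with gRNA2, 2.66 with gRNA3 and -0.23 in the VPR control, so the called rise rested on the FOSL1 samples.

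The largest falls included CST6, IL7R, TAGLN and FOSL1. CST6 had a log2 ratio of -1.55 (SE 0.132, adjusted p = 1.80e-17, edgeR), DKK1 -1.30 (SE 0.0850, adjusted p = 7.69e-24) and TAGLN -1.38 (SE 0.173, adjusted p = 7.07e-10), each below 0 in 3 of 3 samples. TAGLN stood at -2.06 in the VPR control, -1.07 with gRNA3 and -0.54 with gRNA2, where its interval, -1.18 to 0.09, held 0. IL7R, the interleukin 7 receptor chain, had -1.50, and 4.79 CPM in positive and 19.3 CPM in zero cells of the HA control. FOSL1 had -1.37 (SE 0.122, adjusted p = 1.90e-16). With zero cells matched also on their class of FOSL1 UMIs, chosen after seeing the data, FOSL1 had -0.31 (adjusted p = 0.254, edgeR) and 323 genes were called, 278 of them among the 529. TAGLN then had -0.83 (adjusted p = 0.00247), DKK1 -0.91 (adjusted p = 5.80e-17) and SAT1 0.90 (adjusted p = 2.11e-38). Within the HA control, with cells at 0 FOSL1 UMIs only, a choice also made after seeing the data, 269 genes were past the size, and TAGLN stood at -1.91.

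Of the 28 genes farthest apart in the HA control, 10 did not pass the edgeR test in the other samples, namely FGFBP1, KRT14, KRT15, MMP7, ALCAM, INHBA, CRISP3, SELENOP, CSRP1 and MGLL. KRT14 differed between samples: it had 87.5 CPM in positive and 47.5 CPM in zero cells of the HA control and 96.3 and 49.8 CPM in the VPR control. With gRNA2 it had 193 and 200 CPM, and with gRNA3 129 and 189 CPM. In the fit KRT14 was called at 0.35 without gRNA3 and at -0.31 without the VPR control. MMP7 had 37.0 and 21.8 CPM with gRNA2, 24.4 and 46.6 CPM with gRNA3, and 40.2 and 16.6 CPM in the VPR control, and was called at 1.06 without gRNA3. SELENOP was called at -0.66 without gRNA3 and at 0.90 without the VPR control, and ALCAM at 0.51 without the VPR control.

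Genes of the actin cytoskeleton stood lower in positive cells. They build and cross-link actin filaments, and many are known targets of serum response factor (SRF), which binds the CArG box. Here and below, members of a list are those at 20 CPM or more in the HA control. Counts of members are to be read beside all genes, of which 1.48% were higher and 3.65% lower in the HA control. In the fit of the other samples 2.03% of all genes rose and 2.68% fell. All 16 members lay below 0 in the HA control, 9 of them past the size, with a median of -0.38 against -0.02 over all genes. ZYX, a focal adhesion protein, had 31.4 CPM in positive and 52.6 CPM in zero cells, CSRP1, a LIM protein of actin bundles, 37.7 and 68.5 CPM, FLNA, the actin cross-linker filamin A, 315 and 438 CPM, and TPM1, a tropomyosin, 1371 and 1895 CPM. ACTB, the cytoplasmic beta-actin, had 3789 and 4683 CPM. In the other samples 12 of 18 fitted members fell and 0 rose, among them FHL2 with -0.58 (SE 0.0642, adjusted p = 3.77e-12, edgeR) and ZYX with -0.72 (SE 0.113, adjusted p = 7.70e-07). This list was added after the values of TAGLN and CSRP1 had been seen, so its counts are a description.

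**Figure D5:**
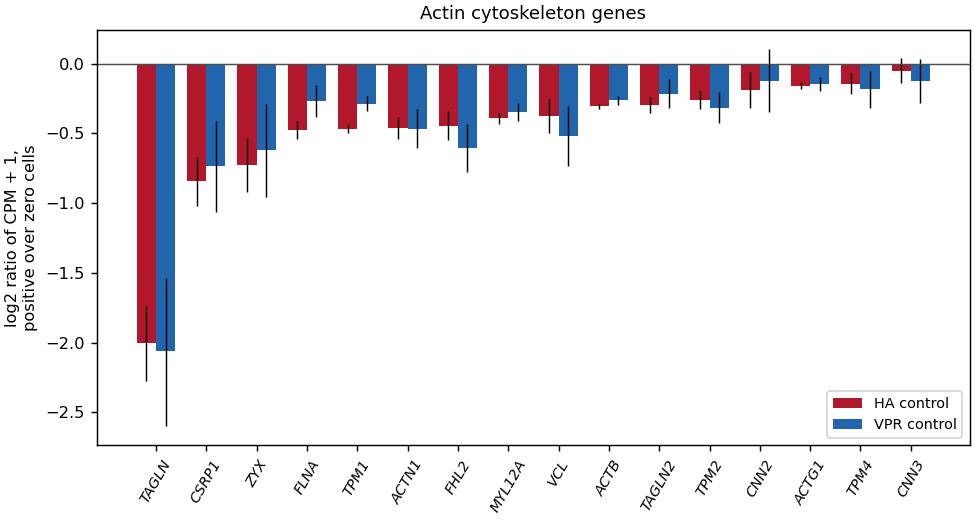
Log2 ratio of CPM + 1, positive over zero cells (y axis), for the 16 actin cytoskeleton genes that averaged 20 CPM or more in the HA control (x axis), with the HA control left and the VPR control right of each pair. Bars are the ratios and whiskers 95% counting intervals; all bars lie below 0, with TAGLN at -2.00 and -2.06.

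Promoter windows were searched for 3 motifs on both strands, in the 250 bases before each start (RefSeq, GRCh38.p14): the CArG box, the AP-1 motif TGANTCA and the TEAD motif CATTCC. The CArG box was found in 1.14% of all 27305 windows, in 1.04% of the windows of genes at 20 CPM or more, in 5 of 151 windows of the lower genes, in 0 of 63 of the higher genes, and in 6 of 17 of the actin list. That list was drawn up with known SRF targets, so its share says nothing about these cells. The box was in 0 of 9 windows of the 14 genes farthest below. Of the 5 lower genes with a box, GBP1, ISG15 and CAPN2 are not on the actin list. The AP-1 motif was in 7 of 63 windows of the higher genes (11.1%), 8 of 151 of the lower genes (5.30%) and 0 of 17 of the actin list, against 3.26% of genes at 20 CPM or more and 6.60% of all windows. The TEAD motif was in 8 of 63 higher (12.7%), 19 of 151 lower (12.6%) and 1 of 17 actin windows, against 9.51% and 11.9%. The windows of FLNA (chrX:154374635-154374884, minus strand) and FHL2 (chr2:105438514-105438763, minus strand) are shown because both genes are on the actin list and among the lower genes; FHL2 had 124 CPM in positive and 170 CPM in zero cells. Each is written 5′ to 3′ on the gene's strand, with the box in capitals.
FLNA: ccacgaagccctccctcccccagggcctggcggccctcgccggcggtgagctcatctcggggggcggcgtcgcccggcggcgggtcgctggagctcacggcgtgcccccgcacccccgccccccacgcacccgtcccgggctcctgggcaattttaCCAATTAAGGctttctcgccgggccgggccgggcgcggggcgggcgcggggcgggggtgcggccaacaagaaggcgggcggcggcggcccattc
FHL2: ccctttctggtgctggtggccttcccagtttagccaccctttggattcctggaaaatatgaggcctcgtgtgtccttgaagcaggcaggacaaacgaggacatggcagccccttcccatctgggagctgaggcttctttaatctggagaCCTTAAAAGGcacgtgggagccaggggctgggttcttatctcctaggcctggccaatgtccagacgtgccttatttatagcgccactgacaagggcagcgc
The box starts 94 bases before the FLNA start and 101 bases before the FHL2 start. A match is a description of the letters and not of binding.

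Most keratins that passed the size or the test stood lower in positive cells. Of the 5 glandular keratins KRT7, KRT18 and KRT23 were lower in positive cells and 0 higher, with a list median of -0.35. With all zero cells unmatched 1 of these 3 was past the size and the median was -0.23. KRT18 had 1223 CPM in positive and 1554 CPM in zero cells, and KRT7 1071 and 1394 CPM. Across the VPR samples 4 of 5 fell, KRT18 by 0.40 log2 (SE 0.0388, adjusted p = 1.69e-14, edgeR), and KRT19 did not pass. Basal keratins were divided in the HA control, with KRT14 and KRT15 higher and KRT16 and KRT17 lower, at 437 CPM in positive and 607 CPM in zero cells for KRT17. Of 6 fitted across the VPR samples, KRT5, KRT16 and KRT17 fell and 0 rose, and of 4 hair keratins KRT81 fell and 0 rose. KRT16 stood at -0.34 with gRNA2 and -1.25 with gRNA3, but at -0.03 in the VPR control. KRT14, KRT16 and KRT17 are close in sequence and could share reads.

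Secreted proteins of luminal epithelium stood in part higher. Of 10 members, 5 were higher and 1 lower, with a median of 0.33, where 1.48% of all genes were higher and 3.65% lower. With all zero cells unmatched 3 were higher and 1 lower and the median was 0.19, and with zero cells weighted over bins of total UMIs it was 0.21. SLPI, an antiprotease of mucosal fluids, had 689 CPM in positive and 510 CPM in zero cells, LCN2, the iron carrier lipocalin, 230 and 165 CPM, PI3, the antiprotease elafin, 434 and 313 CPM, and SAA2, an acute-phase protein, 73.9 and 55.6 CPM. AGR2 is the other member higher, and CLU, the chaperone clusterin, was lower, at 50.3 and 75.5 CPM. Across the VPR samples 8 of 11 rose, where 2.03% of all genes did, and 0 fell. PI3 stood at 0.90 (SE 0.0779, adjusted p = 3.14e-17, edgeR) and MGP, matrix Gla protein, at 0.50 (SE 0.0405, adjusted p = 1.65e-18). Luminal progenitor and stem markers had 3 of 12 higher and 0 lower in the HA control, and 7 of 12 rose and 1, CD44, fell in the other samples. SOX4, a transcription factor of progenitor cells, had 924 CPM in positive and 736 CPM in zero cells and rose by 0.68 (SE 0.0506, adjusted p = 1.24e-20, edgeR) in the other samples.

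Of 13 transcription factors of the mammary gland, FOXC1, EHF and TRPS1 were higher in positive cells and RUNX1 lower. Over all genes 1.48% were higher and 3.65% lower. FOXC1, a factor of basal-like breast cancer, had 119 CPM in positive and 79.6 CPM in zero cells, and rose by 0.68 (SE 0.0866, adjusted p = 1.14e-09, edgeR) in the other samples. EHF, an ETS factor of epithelium, had 67.4 and 48.6 CPM and rose by 0.66 (SE 0.102, adjusted p = 6.50e-07). RUNX1 had 21.2 and 27.6 CPM and did not pass in the other samples (-0.34, adjusted p = 0.152).

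Genes of the pathways on which SOSTDC1 acts showed no common direction. Of 28 Wnt and BMP antagonists measured, 5 reached 20 CPM. DKK1 was lower and APCDD1, a membrane inhibitor of Wnt signalling, higher, at 57.4 CPM in positive and 42.7 CPM in zero cells. Across the VPR samples APCDD1 rose by 0.97 (SE 0.123, adjusted p = 1.01e-09, edgeR), SFRP1, a secreted Frizzled-like antagonist, by 0.38, and BAMBI, a BMP decoy receptor, by 0.53, while DKK1 fell. Of 10 Wnt ligands, receptors and targets, LGR4, an R-spondin receptor, was higher, at 64.8 and 47.6 CPM, and CCND1, the cyclin D1 gene, lower, at 352 and 493 CPM. CCND1 alone of 22 fitted passed in the other samples, at -0.45 (SE 0.0541, adjusted p = 1.60e-10).

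Among BMP and TGF-beta ligands and receptors 4 reached 20 CPM and all lay below 0 in the HA control, as did 3219 of 5694 genes. INHBA was lowest, and TGFB2, a TGF-beta ligand, had 56.3 CPM in positive and 74.1 CPM in zero cells. Across the VPR samples TGFB1 alone of 19 passed, at -0.61 (SE 0.165, adjusted p = 0.0139, edgeR). Its log2 ratio was -0.88 with gRNA2, -0.80 with gRNA3 and 0.06 in the VPR control, so the called fall rested on the FOSL1 samples. BMP targets were divided. Both at that level were lower: ID3 had 37.9 CPM in positive and 66.3 CPM in zero cells, and ID4 96.1 and 124 CPM. ID2, an inhibitor of the same family that averaged under 20 CPM, was on the other side, at 20.8 and 12.3 CPM (log2 ratio 0.72, interval 0.42 to 1.02). ID3 and ID4 did not pass in the other samples, at -0.18 (adjusted p = 0.450) and -0.20 (adjusted p = 0.286, edgeR), where ID2 rose by 1.06 (SE 0.251, adjusted p = 0.00282). The samples of that fit differed. In the VPR control ID3 stood at -0.51 (interval -0.82 to -0.21) and ID4 at -0.53 (-0.74 to -0.32). With gRNA2 and gRNA3, ID3 stood at 0.09 and -0.01, and ID4 at -0.29 and 0.29.

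Genes known from earlier results of these samples to move with FOSL1 mirrored it only in part in the HA control. Of 7 genes raised with FOSL1 that reached 20 CPM, 4 were lower in positive cells, DKK1, CAV1, KRT16 and ADAMTS1, and KRT14 and S100A2 were higher. Among raised genes under 20 CPM, KRT34 stood at -1.90, IL7R at -1.81, COL5A2 at -0.99, AREG at -0.55 and KLK6 at -0.51. These intervals lay below 0, whereas C19orf33 stood at 0.13 with an interval that held 0. Several other raised genes under 20 CPM also had intervals that held 0. Of 20 genes lowered with FOSL1, 7 were higher and 5 lower. CAV1, the caveolin gene, had 236 CPM in positive and 346 CPM in zero cells, and S100A2 334 and 242 CPM. Among the VPR samples, of which a pair has raised FOSL1, 15 of 18 raised genes fell and 16 of 21 lowered genes rose. These lists were picked from the same samples and are not independent of them.

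The shares of cell cycle phases overlapped. Phases scored on thinned cells gave 36.0% of positive and 41.2% of zero cells in G2M, with intervals of 32.2% to 40.0% and 37.2% to 45.2% that overlap, 42.2% and 40.4% in S, and 21.8% and 18.4% in G1. Of 20 genes of G2 and mitosis 5 were lower and 0 higher, among them AURKA, a mitotic kinase, at 78.4 CPM in positive and 113 CPM in zero cells, and the list median was -0.22. That median was -0.08 with cells matched within a phase and 0.0032 with all zero cells unmatched, so the lower median was not kept without matching. In the other samples 3 of 20 fell, where 2.68% of all genes did. None of 16 S phase genes was past the size, and 0 of 20 passed in the other samples.

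Ribosomal and mitochondrial genes differed by small amounts. All 20 cytosolic ribosomal protein genes lay above 0, with a median of 0.11 and 0 past the size, and the 13 mitochondrially encoded genes had a median of 0.02 with 0 past the size. Across the VPR samples 4 of the 20 ribosomal genes and 3 of the 13 mitochondrial genes rose and 0 fell, where 2.03% of all genes rose; RPS3, a protein of the small ribosomal subunit, rose by 0.14 log2 and MT-ND6, a subunit of respiratory complex I, by 0.31. Of 8 hypoxia and glycolysis genes all lay below 0, as did 3219 of 5694 genes, and 2 were counted as lower, SLC2A1, the glucose transporter, at 32.9 CPM in positive and 44.8 CPM in zero cells, and PFKP, a phosphofructokinase, at 28.7 and 36.2 CPM. Of 15 fitted across the VPR samples BNIP3 and LDHA fell and 0 rose. YAP and TEAD targets, a list also added after values were seen, had 3 of 13 lower and 0 higher, with GADD45A, F3 and TGFB2 as these 3, and across the VPR samples 5 of 15 fell and 0 rose. Over all genes 3.65% were lower in the HA control and 2.68% fell across the VPR samples.

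Genes of attachment to the matrix were in part lower. The lists below are short, and over all genes 3.65% were lower and 1.48% higher in the HA control. Of 10 genes of laminin-332, hemidesmosomes and integrins, ITGA3, an integrin chain that binds laminin, and DST, a hemidesmosome linker, were lower and 0 higher. ITGA3 had 23.9 CPM in positive and 38.8 CPM in zero cells and DST 48.3 and 65.9 CPM, and both fell in the VPR samples, at -0.68 (SE 0.113, adjusted p = 3.21e-06, edgeR) and -0.63 (SE 0.0988, adjusted p = 7.70e-07). Of 7 matrix genes THBS1, the adhesive glycoprotein thrombospondin, and TIMP2, a protease inhibitor, were lower and MMP7 higher; THBS1 had 83.9 and 132 CPM. Of 6 NF-kB targets and chemokines TNFAIP2 and ICAM1, a leukocyte adhesion receptor, were lower and 0 higher. ICAM1 had 41.8 and 62.3 CPM and fell by 0.61 log2 (SE 0.117, adjusted p = 7.63e-05, edgeR) in the VPR samples, where of 11 fitted NFKBIZ, a nuclear inhibitor protein of NF-kB, rose by 0.59. The median of this list was -0.18, and 0.032 with only cells at 0 FOSL1 UMIs.

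In several lists no member was past the size in the HA control. These were the 5 AP-1 subunits other than FOSL1 that reached 20 CPM, the 10 MHC class I genes, the 12 heat shock genes, the 16 genes of sterol and fatty acid synthesis, the 13 cell junction genes, the 5 Notch genes and the 5 H3K27 enzymes. With 5.13% of all genes past the size, 0 in a list of 5 to 16 genes is near that background. In the VPR samples members of some of these lists passed the test: B2M of the MHC class I list rose, CRYAB rose and HSPA8 fell among heat shock genes, DSC2 rose and DSP fell among junction genes, HMGCS1 of sterol synthesis fell, and FOS of the AP-1 subunits rose. Of the 7 genes of the IGF system and midkine, MDK, the growth factor midkine, was higher, at 370 CPM in positive and 288 CPM in zero cells, as was INSR, the insulin receptor, at 41.9 and 29.8 CPM. MDK rose by 0.72 log2 (SE 0.0711, adjusted p = 4.70e-14, edgeR) and INSR by 1.02 (SE 0.145, adjusted p = 4.53e-08) in the VPR samples. In 11 S100 genes S100A2 was higher and S100A7 and S100A8 lower, and across the VPR samples 2 of 12, S100A8 and S100A9, rose and 5 fell. S100A8 and S100A9 stood at -0.05 and 0.05 in the VPR control, 0.70 and 0.31 with gRNA2, and 1.99 and 0.97 with gRNA3.

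The genes beside SOSTDC1 on chromosome 7 were examined as a group. Of the 7 neighbours within 2 Mb with at least 20 UMIs, AGR2 stood highest, at 0.72 in the HA control and 0.73 in the VPR control. AHR, the aryl hydrocarbon receptor, had 52.2 CPM in positive and 41.9 CPM in zero cells (0.31), BZW2 237 and 195 CPM (0.28), and TSPAN13 172 and 153 CPM (0.17). ANKMY2 had 24.0 and 19.2 CPM (0.31) and stood at -0.14 in the VPR control. SNX13, between AHR and HDAC9, had 13.7 and 12.6 CPM (0.11) with an interval that held 0, and HDAC9 had 5.72 and 9.88 CPM (-0.70). Chromosome medians of the log2 ratio lay between -0.05 and 0.02, and that of chromosome 7 was -0.02.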

How the data were processed

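The deposited matrix held raw UMI counts per gene and barcode that the authors made with Cell Ranger (version 4 per the file header) against hg38 per the submitters' processing notes, with an annotation version that the sources used here do not state. The authors' deposited table gave each called cell a hashtag and its assignment probability as a fraction between 0 and 1 (lowest of kept cells 0.903). The non-VPR hashtags carry the prefix GOF and were taken as HA by elimination; the protocol speaks of a pool of 6 samples, of which 5 are analysed here. Cells called as multiplets (5181), as unassigned (402) or as blanks (274) entered no comparison, and doublets within 1 sample were not called. UMIs were summed over cells, CPM was computed over all genes but SOSTDC1, and ratios had exact conditional binomial intervals at 95%. Levels had Poisson intervals, shares Clopper-Pearson intervals, and phases were scored with scanpy 1.11.5.

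The test across samples was edgeR 4.0.16 (TMM, filterByExpr, glmQLFit, glmQLFTest, Benjamini-Hochberg over all genes fitted; R 4.3.3). The sums of positive and zero cells of 1 sample are paired by that sample, which is the block. The fit had 2 residual degrees of freedom, against a median of 95.8 drawn from all genes together. The p-values thus rest mostly on a spread shared over genes and little on each gene's own spread between samples. All samples come from 1 pool. DESeq2 1.42.0 was an alternative. Computation was tested on simulated data. Named genes were FOSL1, the 14 farthest above and below averaging 20 CPM or more with an interval without 0, the 5 largest rises and falls in the test, and for each of 40 lists its most abundant or changed members; some genes these rules name are not reported here, and counts include them. Members and lists were chosen with earlier results of these data known, and 2 lists were added after values were seen.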

Additional observations from a re-analysis of the deposited data

Results flagged for a closer look

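Of 92 genes examined, 7 differed in direction between all 3 FOSL1 samples and both controls, when positive cells were set against zero cells. That is 7.61% of those examined, against 316 of all 5694 genes at 20 CPM or more (5.55%), so the count is near the background. The difference between the groups was not tested for any of them. SELENOP had log2 ratios of 1.08 in HA FOSL1, 0.34 with gRNA2 and 1.14 with gRNA3, against -0.89 in the HA control and -0.90 in the VPR control. CRISP3 had 2.42, 0.37 and 1.22 in these FOSL1 samples, against -0.90 in the HA control and -0.21 in the VPR control, and its value in HA FOSL1 rests on 8 UMIs in positive and 1 in zero cells. In the same order of samples, IGFBP5 had 0.40, 1.86 and 2.66 in FOSL1 samples, against -0.11 and -0.23 in the controls. S100A8 had 1.96, 0.70 and 1.99 in FOSL1 samples, against -0.40 and -0.05 in the controls. CYP4X1, a cytochrome P450, had 2.78, 0.46 and 1.26 in FOSL1 samples, against -0.46 and -0.51 in the controls. The gaps were smaller for DUSP4, a MAP kinase phosphatase, with 0.31, 0.03 and 0.02 in FOSL1 samples against -0.45 and -0.23 in the controls, and for ISG15, an interferon-induced modifier, with 0.15, 0.19 and 0.19 against -0.34 and -0.41 in the controls. HA FOSL1 had 25 positive cells. The counting interval held 0 in 4 of the 5 samples for DUSP4, in 3 each for CRISP3 and ISG15, in 2 for SELENOP, in 1 each for S100A8 and CYP4X1 and in 0 for IGFBP5.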

How the results depend on the processing

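The count of 292 genes past a log2 ratio of 0.32 in the HA control was 191 with all zero cells unmatched, 706 with cells thinned to 5000 UMIs, 601 for cells with 3 or more UMIs, 94 for cells with 1 UMI, 130 at a mean of at least 50 CPM, 2942 with no filter on the mean and 59 at 1.5-fold. Thinned sums hold fewer UMIs. The 529 edgeR calls were 90 with DESeq2, 144 with thinned cells, 323 with matching on FOSL1 class (chosen after seeing the data), 98 with no block for the sample, and between 235 and 506 with 1 sample left out. The sums of a sample are paired, so the fit with the block is the main one. Thinned shares of positive cells were 3.95%, 0.165%, 0.591%, 0.583% and 1.24% in the HA control, HA FOSL1, gRNA2, gRNA3 and the VPR control. The median of the G2 and mitosis list was 0.0032 with unmatched zero cells, against -0.22. That of NF-kB targets and chemokines was 0.032 with only cells at 0 FOSL1 UMIs (also chosen after seeing the data), against -0.18. The cause was not tested in either case. Over 348 values of named genes in the HA control none reversed, and 74 moved outside the counting interval, among them 27 of 29 with 1 UMI and 14 of 29 with 3 or more UMIs. These genes, FOSL1 aside, had been chosen for their large ratios in these cells. Many settings also share cells, so a reversal was unlikely from the start. Depth limits genes under 20 CPM, and 1 sample per group leaves the HA control untested.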
